A study of Mus musculus with 48 samples.

Results

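Liver and visceral white adipose tissue of male C57BL6/J mice were compared after 12 weeks on a high-fat diet that supplied 45% of calories as fat and was started at 8 weeks of age. The comparison used 6 RNA libraries of the 48 in the series, 3 from liver and 3 from visceral fat, chosen by tissue, diet, sex and duration as labelled. Each tissue has libraries numbered 2, 3 and 4, and the labels do not say whether a shared number marks the same mouse. Males on regular chow for 12 weeks and females on the high-fat diet for 12 weeks, again 3 libraries of each tissue, served to show where the tissue difference depended on diet or sex. All these mice are of 1 inbred strain with no transgene or drug named in the labels. The labels say only "visceral" and do not name the fat depot. Nothing in them states that the 3 libraries of a group came from separate mice, so p-values measure the spread between these samples.

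Liver and white fat share the handling of glucose and fatty acids but divide the work. Hepatocytes make most plasma proteins, urea, bile acids, ketone bodies and lipoproteins, and release glucose during fasting. Adipocytes take up fatty acids through lipoprotein lipase, store them as triglyceride in a droplet coated by perilipin, and secrete leptin and adiponectin. In obese visceral fat, macrophages gather around adipocytes and take up lipid, while the liver keeps its own resident macrophages, the Kupffer cells. In whole tissue, fewer cells of a type and less RNA per cell cannot be told apart.

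Total estimated counts were 57.1 to 79.1 M in the 6 libraries and 44.7 to 105 M over all 48, where M stands for 1000000. Levels are given in CPM, counts scaled to a common total of 1000000 on effective library sizes, with no correction for transcript length, so they compare libraries and not genes. The labels were checked on all tested members of 2 lists. The 37 plasma protein genes summed to 222870 to 266882 CPM in liver and 3869 to 3968 in fat. The 25 adipocyte genes summed to 35629 to 43482 CPM in fat and to 32544 to 33717 in liver, a small gap for a list that holds Trf, Pck1, Rbp4 and Car3, all abundant in liver. Its defining genes Plin1, Adipoq and Lep were at or near 0 in every liver library, with values below.

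The number 4 libraries stood apart from numbers 2 and 3 in both tissues. Of 10514 genes with at least 1 CPM in all 6 libraries, number 4 differed by more than 2-fold from the mean of the other liver libraries in 442 genes upward and 606 downward, and in 142 and 139 genes in fat. In 57 genes it was higher in both tissues and in 15 it was lower in both, whereas 20 moved in opposite directions. For number 3 the genes higher or lower in both tissues were 7 and 10, and for number 2 they were 2 and 10. G0s2, an inhibitor of the lipase ATGL, stood at 83.1 and 158 CPM in liver and 89.6 and 78.4 in fat for numbers 2 and 3, but at 2.59 and 6.54 for number 4. The metallothionein gene Mt2 stood at 13.4 and 52.8 CPM in liver and 66.0 and 72.9 in fat for numbers 2 and 3, and at 1107 and 361 for number 4. The early response gene Egr1 and the cytokine signalling inhibitor Socs3 were higher in number 4 of both tissues, and the clock output genes Dbp and Hlf were lower. These genes were picked after their values were seen. List counts that moved by over 1.5 times when number 4 of both tissues was left out are given below with and without it.

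**Figure D1:**
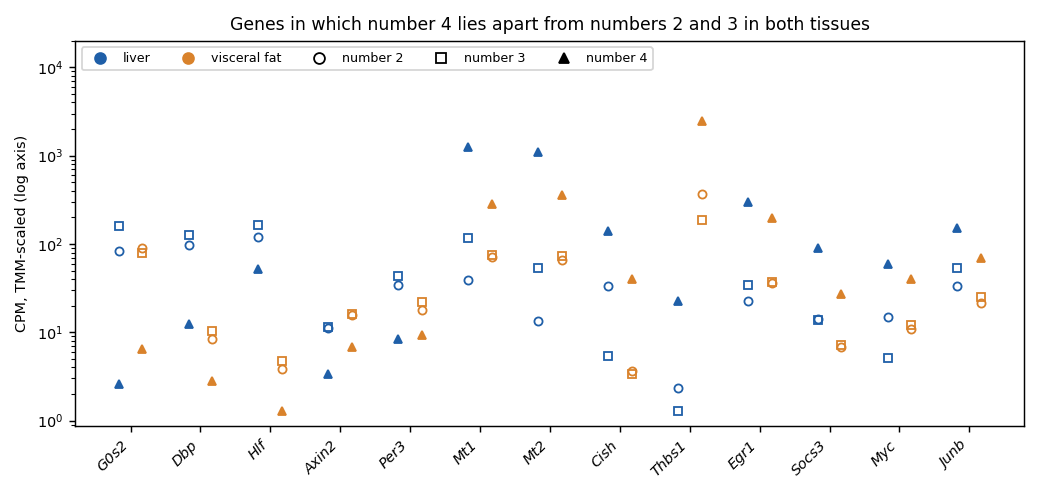
CPM on a log axis in each of the 6 libraries for 13 genes picked because number 4 (filled triangles) lay apart in both tissues, with liver in blue and visceral fat in orange. G0s2, Dbp, Hlf, Axin2 and Per3 were lowest in number 4 of each tissue, and Mt1, Mt2, Cish, Thbs1, Egr1, Socs3, Myc and Junb were highest.

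Of 15859 genes tested, 10459 (65.9%) differed between the tissues at an adjusted p under 0.05, with 5024 higher in liver (31.7%) and 5435 higher in fat (34.3%). Since most genes differed, the description below rests on a stricter test against a 2-fold difference. It called 6205 genes (39.1%), with 2484 higher in liver (15.7%) and 3721 higher in fat (23.5%), and these shares are the background for every list below. Differences whose fitted size passed 16-fold numbered 932 in liver and 1424 in fat among those genes. The 3 liver and 3 fat values did not overlap in 11651 genes (73.5%).

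The split between the tissues depends on the scaling. A few genes take up much of a liver library, with the 100 most abundant holding 47.4% to 52.4% of its counts against 25.6% to 28.0% in fat, and Alb alone holding 5.26% to 7.22%. TMM scaling, used here, sets the median gene near equality at -0.01 on the log2 scale of liver over fat. Scaling to library totals alone shifted the median of all genes by -1.21. It gave 1334 genes higher in liver and 7099 higher in fat beyond 2-fold, and 1891 and 10670 without the 2-fold margin. Under library totals the members higher in liver beyond 2-fold numbered 3 of 19 for glycolysis, 3 of 15 for clock genes, 1 of 19 for branched-chain amino acid genes, and 0 for interferon, housekeeping and adipose factor genes. Those higher in fat numbered 14 of 25 for triglyceride synthesis, 5 of 20 for lipogenesis, 6 of 20 for insulin signalling, 7 of 20 for interferon and 5 of 15 for housekeeping genes. Fold changes below are therefore relative to the median gene.

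Secreted proteins of the hepatocyte showed large and uniform differences. Of 37 plasma protein genes tested, 36 were higher in liver beyond 2-fold, with a median log2 difference of 10.18. In fat these 36 genes stood at a median of 0.0690%, 0.136% and 0.0473% of their liver mean in numbers 2, 3 and 4. The source of such trace counts in fat was not tested, and the largest liver folds here and below depend on them. Alb, which encodes serum albumin (GRCm38, chr5:90460897-90476602), stood at 106363, 107902 and 88864 CPM in the liver libraries and at 42.6, 118 and 38.7 in the fat libraries. The groups were far apart, at 1519-fold (log2 10.57 ± 0.81 SE, adjusted p = 4.3e-05 against 2-fold). The exception was Hp, the haemoglobin scavenger haptoglobin, at 2508, 2936 and 3863 CPM in liver and 2165, 2399 and 2211 in fat (log2 0.47 ± 0.25, adjusted p = 0.14 against no difference). Trf, encoding transferrin, and Apoe, encoding a lipoprotein component that macrophages also make, were higher in liver by 13.5-fold and 12.8-fold while fat kept 1278 to 1569 and 1425 to 1962 CPM. Of 16 apolipoprotein and lipoprotein assembly genes, 15 were higher in liver beyond 2-fold. They included Apob, the structural protein of very low density lipoprotein (1181-fold), and Mttp, which loads lipid onto it (138-fold). All 9 major urinary protein genes tested were higher in liver (median log2 9.97), but these copies are nearly identical and reads may be split among them.

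**Figure D2:**
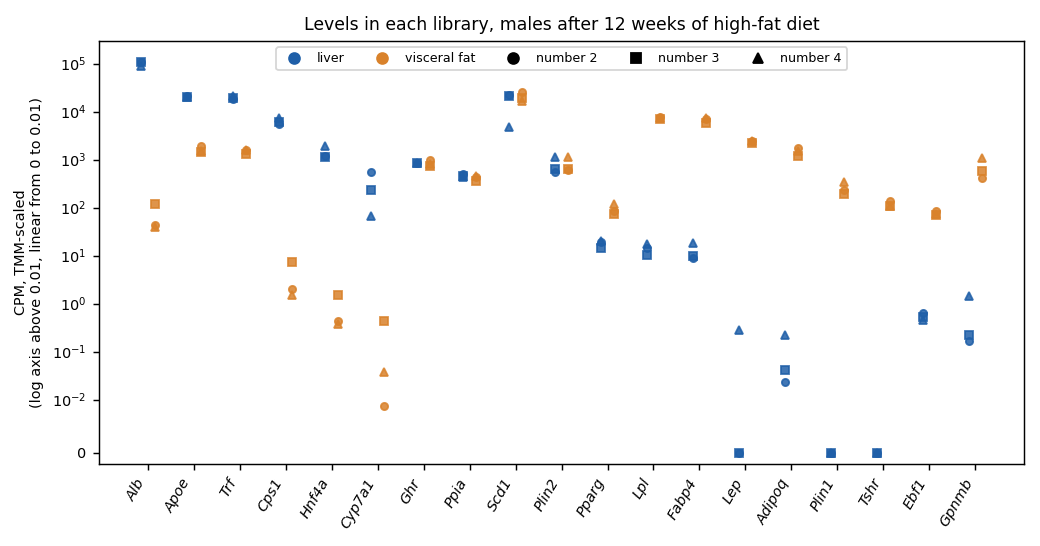
CPM of 19 genes in each library on a log axis above 0.01 and a linear one below it, with liver in blue, visceral fat in orange and the symbol giving the number. Alb to Cyp7a1 were higher in all liver libraries, Ghr, Ppia, Scd1 and Plin2 overlapped or nearly so, and Pparg to Gpnmb were higher in all fat libraries, with Plin1 and Tshr at 0 in every liver library.

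Among genes beyond 2-fold, ranked by CPM with no length correction, liver was led by Alb, mitochondrial transcripts, urinary proteins, Apoe, Trf and Serpina3k. Serpina3k, a plasma protease inhibitor, was 932-fold higher there. Fat was led by Lpl and Fabp4, then Gsn (gelsolin, which severs actin) at 5566, 4535 and 5869 CPM against 27.6, 19.5 and 15.2, and Sparc, a matrix protein, 62.8-fold higher. The lysosomal genes Psap and Ctsb were 5.02-fold and 4.36-fold higher in fat. Cd36, a fatty acid carrier of adipocytes and macrophages, stood at 2606, 2380 and 1298 CPM in fat against 91.2, 78.9 and 64.1 in liver, lowest in number 4 of both tissues. Among the largest differences, Slc30a10, a manganese exporter, stood at 22.5, 17.8 and 32.3 CPM in liver with no count in fat (at least 773-fold higher), and Mtnr1a, a melatonin receptor, at 4.24, 3.91 and 18.5 (at least 284-fold). Tmem182, Cdsn and Slc5a7, the last a choline carrier, had no count in liver and were at least 1516-fold, 1254-fold and 906-fold higher in fat.

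Acute phase genes, which the liver makes in inflammation, were higher in liver beyond 2-fold in 13 of 20. Crp was 910-fold higher. Saa1 stood at 27.4, 77.3 and 254 CPM in liver and 0.723 to 2.17 in fat, with a log2 of 6.60 that became 5.11 without number 4. Saa3, a form made by macrophages and adipocytes, stood at 9.96, 14.8 and 19.6 CPM in fat and was not called (log2 -1.26 ± 0.51, adjusted p = 0.063 against no difference).

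The promoters of some liver-high genes carry letters that HNF4 recognises. Hnf4a, a nuclear receptor of hepatocytes, stood at 1196, 1107 and 1882 CPM in liver and at 0.443, 1.52 and 0.372 in fat. The letters CAAAGTCCA were in 18 of 1767 promoters (1.02%) of genes higher in liver beyond 2-fold, 14 of 2553 (0.548%) for genes higher in fat, 24 of 7015 (0.342%) for genes not called beyond 2-fold, and 129 of 27025 (0.477%) in the whole table. The form CAAAGTTCA was in 23 (1.30%), 13 (0.509%), 13 (0.185%) and 105 (0.389%) of the same sets. Each promoter ran from 250 bases before the start to 50 after it, in the RefSeq table of GRCm38.p6. These are among 8 motifs reported, all searched on both strands and chosen with the gene calls known, and others were tried as well. For C/EBP, TTNNGCAA was in 11.2% of liver-high, 9.56% of fat-high, 8.14% of not called and 10.8% of all promoters, and the form TTGCGCAA, which it includes, in 0.113%, 0.353%, 0.328% and 0.185%. EBF letters CCCNNGGG were in 17.3% of liver-high, 20.2% of fat-high and 13.4% of all promoters, and in 1196 of the 7015 not called. The FOXA letters TGTTTAC were in 3.79%, 2.59%, 2.41% and 3.55%. The E-box CACGTG was in 8.43%, 7.56%, 10.5% and 7.24%, most often in genes not called. The ETS letters ACAGGAAG were in 4.13%, 2.94%, 2.94% and 3.45%. These shares are descriptions with no test.

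The 6 genes with the highest liver level among 34 that were higher in liver beyond 2-fold and had either HNF4 form before the start, leaving out 1 chromosome not used here, predicted genes and genes not reported here, are shown with 40 bases on either side, 5′ to 3′ on the gene's strand, with the match in capitals.
Apoa4 (an apolipoprotein, chr9:46240622-46240710, plus strand): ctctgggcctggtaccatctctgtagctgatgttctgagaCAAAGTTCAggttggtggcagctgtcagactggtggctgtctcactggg
Cfhr2 (a complement factor H relative, chr1:139858701-139858789, minus strand): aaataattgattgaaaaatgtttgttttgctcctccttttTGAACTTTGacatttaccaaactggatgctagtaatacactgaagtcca
Cyp3a11 (a drug-metabolising P450, chr5:145879915-145880003, minus strand): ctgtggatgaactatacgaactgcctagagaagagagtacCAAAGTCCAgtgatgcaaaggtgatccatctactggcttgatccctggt
Cyp8b1 (the sterol hydroxylase that sets the kind of bile acid made, chr9:121916324-121916412, minus strand): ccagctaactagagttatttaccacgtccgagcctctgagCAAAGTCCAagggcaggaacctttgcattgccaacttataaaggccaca
Cyp2c67 (a P450 of the 2c group, chr19:39649119-39649207, minus strand): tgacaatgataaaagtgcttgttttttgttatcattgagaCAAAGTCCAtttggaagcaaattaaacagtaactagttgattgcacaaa
Cyp2c70 (a P450 that makes muricholic acids, chr19:40187302-40187390, minus strand): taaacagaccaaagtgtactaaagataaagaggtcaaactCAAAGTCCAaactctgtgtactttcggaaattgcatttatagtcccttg
The match began 50 bases before the start in Cfhr2, 64 in Cyp2c70, 67 in Cyp8b1, 109 in Cyp3a11, 125 in Cyp2c67 and 182 in Apoa4. Of these, 4 are P450 genes, all with the first form, and in Cfhr2 the match lies on the opposite strand.

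Liver and fat differed in which members of several gene families they expressed more. Of 26 families set out as pairs, 15 had a member higher in liver and a partner higher in fat, both beyond 2-fold. The pairs were chosen with earlier results of these data known, and they include lipid, receptor and amino acid genes. No share over all genes is defined for such pairs, so the count is a description only. The glucose carrier Slc2a2 (GLUT2) stood at 646, 531 and 359 CPM in liver and 2.50, 2.26 and 2.01 in fat. Its insulin-responsive relative Slc2a4 (GLUT4) stood at 1.31, 1.21 and 0.195 in liver and 104, 73.1 and 66.0 in fat. The tissues did not overlap for either gene (log2 7.83 ± 0.29 and -6.46 ± 0.59). The hexokinase gene Hk2 was 26.0-fold higher in fat at 69.6, 61.8 and 66.0, with liver at 1.85, 1.04 and 4.64 and a log2 of -5.57 without number 4.

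Later steps of glycolysis and glycogen storage were divided as well. Pklr, the liver pyruvate kinase, was 2281-fold higher in liver. Aldoa and Pkm were 6.36-fold and 23.7-fold higher in fat. Glycogen synthase and phosphorylase split likewise, with Gys2 and Pygl higher in liver (14.1-fold and 7.55-fold) and Gys1 and Pygb higher in fat (17.2-fold and 44.5-fold). Over the whole glycolysis list 6 of 19 genes were higher in liver and 6 in fat beyond 2-fold, with a median log2 of 0.24 that became -0.97 under library totals.

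Of 12 gluconeogenesis and glycogen genes, 11 were higher in liver beyond 2-fold. G6pc, which releases free glucose, was 548-fold higher in liver. Pck1, which also feeds glycerol synthesis in fat, was 6.08-fold higher (5064, 5628 and 1814 CPM against 1052, 570 and 428).

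**Figure D3:**
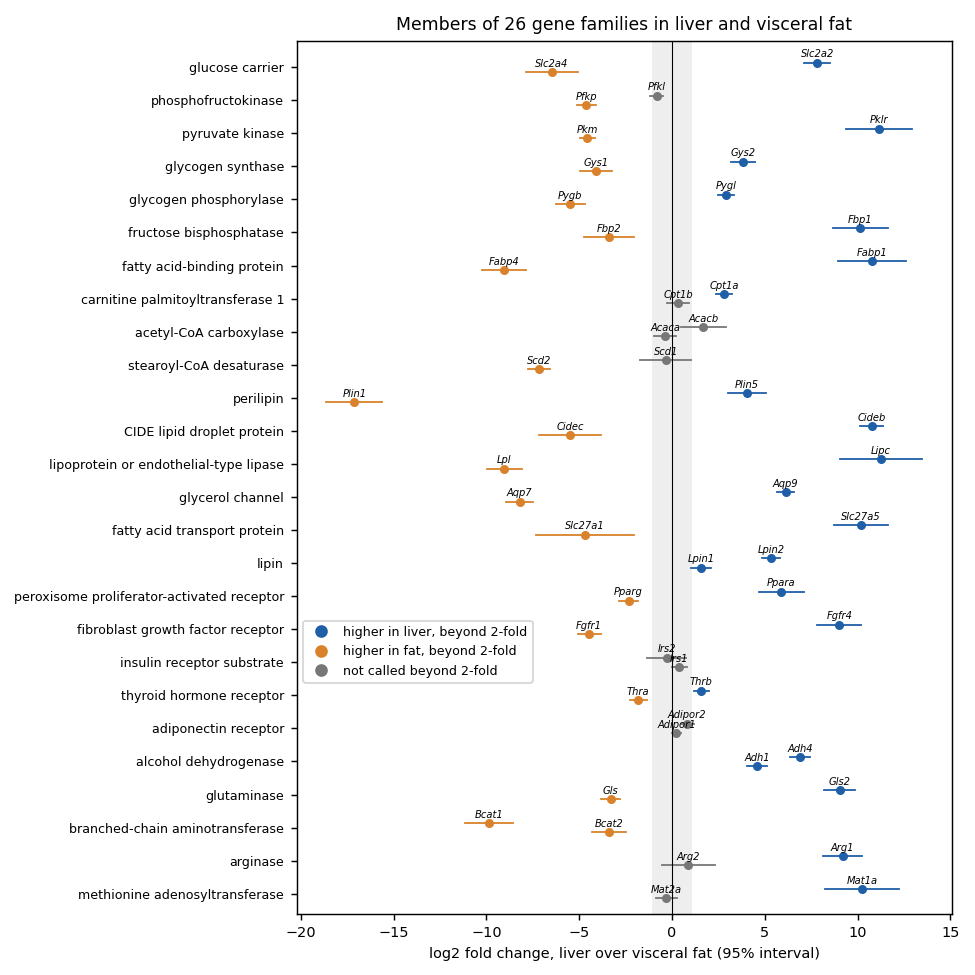
Fitted log2 fold change of liver over visceral fat with its 95% interval for both members of 26 gene families, coloured by the call beyond 2-fold, with the grey band marking less than 2-fold. In 15 families the members lie on opposite sides of the band, among them Slc2a2 and Slc2a4, Pklr and Pkm, and Fabp1 and Fabp4; insulin receptor substrates, adiponectin receptors and acetyl-CoA carboxylases lie in or near it.

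Lpl, Fabp4 and Plin1, genes of lipid uptake and storage, were higher in fat, while the wider lists of storage genes divided between the tissues. Lpl, the lipase that frees fatty acids from circulating lipoproteins (chr8:68880491-68907448), stood at 7710, 7014 and 7474 CPM in fat and 14.4, 10.1 and 17.6 in liver (521-fold, log2 -9.03 ± 0.39, adjusted p = 4.0e-06 against 2-fold). Its hepatic relative Lipc stood at 170, 143 and 149 in liver, and at 0, 0.181 and 0 in fat. The carriers Fabp4 and Fabp1 mirrored this at 536-fold higher in fat and 1770-fold higher in liver. Plin1, the perilipin of the adipocyte droplet, was at 0 counts in every liver library against 236, 189 and 339 CPM in fat, at least 3554-fold higher in fat on a floor of 3 counts per library. Plin5, a perilipin of oxidative tissues, was 16.5-fold higher in liver.

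Plin2, which coats droplets in most cells, stood at 555, 629 and 1148 CPM in liver and 612, 636 and 1154 in fat, a log2 difference of -0.01 ± 0.38. Number 4 was the highest in each tissue. Cideb, needed for lipoprotein lipidation, was 1729-fold higher in liver, and Cidec, which makes large droplets, 45.2-fold higher in fat (log2 -5.50, and -6.37 without number 4). The lipases Pnpla2 and Lipe were 7.62-fold and 36.8-fold higher in fat, and the glycerol channels Aqp7 and Aqp9 were 295-fold higher in fat and 69.6-fold higher in liver.

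Of 25 adipocyte identity genes, 20 were higher in fat and 3 in liver beyond 2-fold. The 3 were Trf, Pck1 and Rbp4, the retinol carrier, which was 16.3-fold higher in liver. Car3, a carbonic anhydrase abundant in adipocytes, stood at 5243, 4368 and 4763 CPM in liver and 9091, 6562 and 6190 in fat and was not called. Triglyceride synthesis and droplet genes divided 6 in liver to 9 in fat of 25, and lipase and lipolysis genes 5 to 7 of 16. Thermogenic genes divided 2 to 4 of 9, with Ppargc1a, a coactivator of mitochondrial genes, 14.4-fold higher in liver and Prdm16, a brown fat factor, 21.9-fold higher in fat. Ucp1, the brown fat uncoupler, was too low to test.

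Fatty acid synthesis genes were found on both sides. Of 20 lipogenic genes, 7 were higher in liver and 3 in fat beyond 2-fold, with a median log2 of 0.85 that became -0.33 under library totals. Scd1, the main stearoyl-CoA desaturase, stood at 22737, 20903 and 4735 CPM in liver and 25208, 19191 and 16350 in fat (log2 -0.34 ± 0.58, adjusted p = 0.63 against no difference), with number 4 of liver apart from the rest. Scd2 was 144-fold higher in fat. Mitochondrial and peroxisomal beta-oxidation enzymes gave 17 of 23 higher in liver beyond 2-fold and 22 without the margin. The count beyond 2-fold was 11 without number 2 or number 3 of liver, 13 to 16 without each other library and 7 under library totals, which gave 10 in liver and 2 in fat without the margin. All 4 ketogenesis genes were higher in liver beyond 2-fold. Of 22 cholesterol synthesis and uptake genes, 20 were higher in liver beyond 2-fold, including Fdft1 (squalene synthase, 35.9-fold).

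Nitrogen, bile acid and detoxification genes were liver-high almost throughout. All 22 genes of urea synthesis and amino acid breakdown and all 17 bile acid genes passed 2-fold. Cps1, the first urea cycle enzyme, was 1754-fold higher. Cyp7a1, the rate-limiting enzyme of bile acid synthesis, spread widely in liver at 548, 230 and 66.5 CPM but stayed apart from fat at 0.00887, 0.442 and 0.0372. Cytochrome P450 genes were higher in liver in 23 of 25 cases, and Cyp1b1 was 43.8-fold higher in fat. Conjugation enzymes were higher in liver in 18 of 20, such as the bilirubin transferase Ugt1a1 (851-fold). Of 19 branched-chain amino acid genes, 9 were higher in liver and 3 in fat beyond 2-fold, and the median log2 of 1.17 became -0.04 under library totals. Both aminotransferases were higher in fat. Bcat1 had 4613 counts over the fat libraries and 2 over the liver libraries. The CPM ratio had a counting interval of 278 to 8290, which leaves out the spread between libraries. Bcat2 was 10.6-fold higher in fat, while Bckdha, a subunit of the next enzyme, was 3.27-fold higher in liver.

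Of 21 liver factors, 18 were higher in liver beyond 2-fold, including Hnf4a and the bile acid receptor Nr1h4 (134-fold). The log2 difference of Hnf4a was 10.81 ± 0.81 (SE), and 10.15 without number 4. Cebpa, which also acts in adipocytes, stood at 586, 530 and 495 CPM in liver and 505, 407 and 351 in fat, and was not called (log2 0.36 ± 0.18, adjusted p = 0.12 against no difference). Of 19 adipose factors, 13 were higher in fat and 3 in liver. Pparg, the master factor of adipocytes, was 5.05-fold higher in fat, with liver at 19.3, 14.7 and 19.7 CPM, and Ebf1 was 140-fold higher. Ppara, which drives oxidation, was 59.8-fold higher in liver. Hox genes, which record body position, were higher in fat beyond 2-fold in 20 of 23 tested and in liver in none. Hoxc8 stood at 68.1, 45.4 and 46.5 CPM in fat against 0.352, 0.532 and 1.08 in liver (log2 -6.35, and -7.04 without number 4), and Hoxd8 at 16.8, 14.5 and 12.5 against 0, 0.0205 and 0, which is 1 liver count.

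Each tissue was higher in its own hormones. Lep, encoding leptin, had 10 counts over the 3 liver libraries, all in number 4, and 2413, 2175 and 2452 CPM in fat. The ratio of fat to liver had a counting interval of 16247 to 62310, which leaves out the spread between libraries. Adipoq (adiponectin) stood at 1750, 1173 and 1540 in fat and 0.0234, 0.0409 and 0.222 in liver (log2 -14.00, and -15.42 without number 4), and Retn (resistin) was 1954-fold higher in fat. Hamp (hepcidin), Igfbp1 and Ahsg (fetuin-A) were 1265-fold, 1275-fold and 1347-fold higher in liver. For Igfbp1, at 990 CPM in number 4 of liver against 270 and 164, the log2 of 10.32 became 8.99 without number 4. Igf1, mainly a liver hormone, was 8.83-fold higher there while fat held 122 to 136 CPM. Over 30 secreted factors, 14 were higher in liver and 10 in fat beyond 2-fold, and the median of 1.08 fell to -0.12 under library totals.

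Among receptors, Gcgr, the glucagon receptor, stood at 294, 294 and 233 CPM in liver and 1.94, 1.90 and 1.34 in fat. Tshr, the thyrotropin receptor, was at 0 in all liver libraries and 138, 109 and 106 CPM in fat, at least 1645-fold higher. Adrb3, the lipolytic adrenergic receptor, was 43.4-fold higher in fat. Fibroblast growth factor receptors split, Fgfr4 520-fold higher in liver and Fgfr1 22.1-fold higher in fat, and Thrb and Thra split likewise at 2.99-fold and 3.54-fold. Ghr, the growth hormone receptor, stood at 862, 847 and 845 CPM in liver and 976, 728 and 824 in fat, with a 95% interval of -0.39 to 0.44 on the log2 scale, but at -1.19 under library totals. Of 20 insulin signalling genes, 1 was higher in liver and 2 in fat beyond 2-fold, against 15.7% and 23.5% of all genes. The liver count was 3 without number 4 of both tissues, and 2 without number 3 or 4 of liver or number 4 of fat. Insr was 2.14-fold higher in liver (log2 1.10 ± 0.14), a direction that library totals turned to -0.12, and Irs1 and Irs2 were not called.

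Of 18 macrophage genes, 16 were higher in fat beyond 2-fold and none in liver, and of 18 genes of lipid-associated macrophages 14 were higher in fat and 1 in liver. Cd68, a lysosomal macrophage marker, stood at 150, 175 and 269 CPM in fat and 6.09, 4.03 and 9.34 in liver. Trem2, the lipid sensor of these cells, stood at 54.9, 65.9 and 107 in fat and 0.820, 0.614 and 0.862 in liver. Gpnmb reached 417, 578 and 1094 in fat against 0.164, 0.225 and 1.42 (log2 -10.20, and -11.35 without number 4). Number 4 was the highest fat library for all 3 genes. Spp1 (osteopontin) went the other way, 4.91-fold higher in liver at 52.1, 60.7 and 88.4 CPM. Plin2 and Lipa were not called. The lipid-associated list also holds Lpl, which is on the adipocyte list as well, so its count is not of macrophage genes alone.

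Of 12 Kupffer cell genes, 6 were higher in liver and 2 in fat beyond 2-fold. Clec4f, a Kupffer lectin, stood at 55.3, 56.1 and 89.5 CPM in liver and at 0.161 to 0.248 in fat, and Cd5l was 42.8-fold higher in liver. Folr2, a marker of resident macrophages in many tissues, was 7.54-fold higher in fat. MHC class II genes were higher in fat in 7 of 10, among them Cd74, the invariant chain, at 1272, 1078 and 1257 CPM against 82.1, 42.0 and 99.3. Of 20 chemokines, 13 were higher in fat, such as Ccl11, which attracts eosinophils, 973-fold. Ccl2, the monocyte attractant, stood at 17.2, 13.1 and 62.1 CPM in fat and 0.633, 0.573 and 4.98 in liver, highest in number 4 of both. Interferon response genes divided 4 in liver to 3 in fat of 20, with a median log2 of 0.46 that became -0.79 under library totals. The fat count was 5 without number 4 of both tissues and 1 without number 2 of fat. T and NK cell genes gave 5 of 16 and B cell genes 7 of 14 higher in fat, with the defining T cell gene Cd3e at most 2.54 CPM in any of the 6 libraries and not called. The T and NK count of 5 was 9 without number 4 of both tissues and 3 without number 2 or 3 of liver or number 3 of fat, and it was 9 over all 48 libraries and 12 under library totals. Of 28 complement genes, 17 were higher in liver, including Masp2 (290-fold) and C3 (6.23-fold), and 9 in fat, including C1qa, C1qb and C1qc (6.16-fold to 9.43-fold), the receptors C3ar1 and C5ar1, and the adipocyte protease Cfd (adipsin, 181-fold, log2 -7.50 and -8.28 without number 4).

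**Figure D4:**
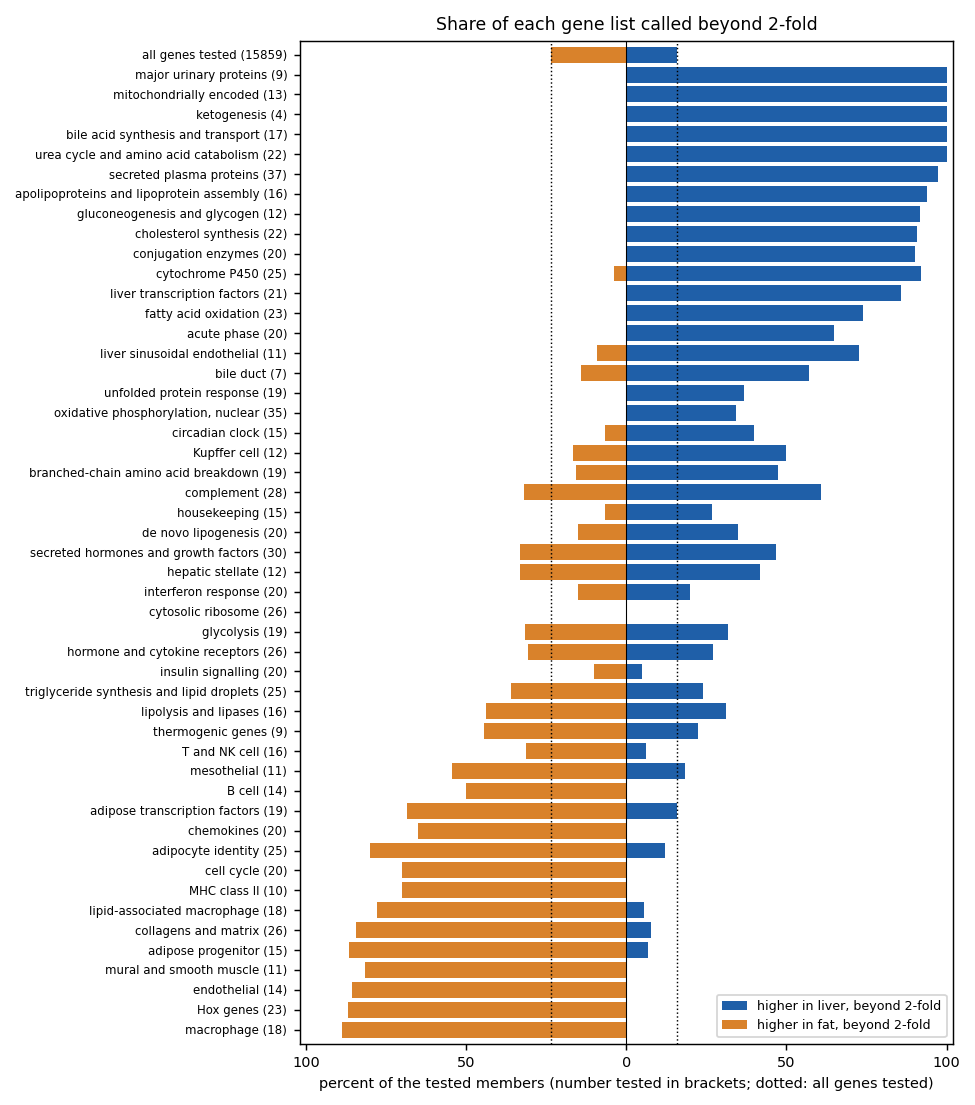
Percent of the tested members of each gene list called beyond 2-fold, higher in liver to the right in blue and higher in fat to the left in orange, with dotted lines at 15.7% and 23.5% for all genes tested. Plasma protein, urea, bile acid, ketogenesis and major urinary protein lists fill or nearly fill the liver side, macrophage, endothelial, Hox and matrix lists the fat side, and cytosolic ribosome genes have none called past 2-fold.

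Stromal and vascular genes were also higher in fat. All 14 endothelial genes were, 12 of them beyond 2-fold, with Pecam1 at 191, 190 and 177 CPM in fat against 26.6, 23.6 and 19.4 in liver. Of 11 liver sinusoidal endothelial genes, 8 were higher in liver beyond 2-fold, such as Stab2 (17.8-fold), and Lyve1 was 3.34-fold higher in fat. Of 26 collagen and matrix genes, 22 were higher in fat beyond 2-fold, with Col3a1, a fibrillar collagen, at 1388, 1686 and 1581 CPM against 40.3, 26.3 and 22.9. Col18a1 and Fn1, made by hepatocytes, went the other way at 5.16-fold and 3.13-fold. Of 15 adipose progenitor genes, 13 were higher in fat, including Pdgfra (9.28-fold), and Dpp4 was higher in liver (log2 3.33 ± 0.24). Of 12 hepatic stellate genes, 5 were higher in liver, led by Lrat, which stores retinoid (80.2-fold), and 4 in fat. Cell cycle genes were higher in fat in 14 of 20, none in liver, with Mki67 at 32.0, 54.4 and 42.8 CPM against 4.08, 3.91 and 3.17. Mural and smooth muscle genes were higher in fat in 9 of 11, with Acta2 at 126, 134 and 143 CPM against 3.49, 1.76 and 3.75. Mesothelial genes gave 6 of 11 higher in fat, such as Wt1 (16.9-fold, log2 -4.08, and -3.38 without number 4), and 2 in liver, the keratins Krt8 and Krt18 that hepatocytes also express. Of 7 bile duct genes, 4 were higher in liver, among them Sox9 (4.49-fold), and Krt19 was higher in fat (log2 -2.86, and -1.70 without number 4). The bile duct count in liver was 2 without number 2 or number 3 of fat, 1 over all 48 libraries and 1 under library totals. With any single library left out, the genes higher in fat beyond 2-fold numbered 22 to 23 for matrix, 13 to 14 for progenitors, 14 to 15 for the cell cycle and 10 to 12 for endothelium.

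All 13 mitochondrially encoded genes were higher in liver beyond 2-fold, with a median log2 of 3.03, and held 9.63% to 12.6% of liver counts against 2.15% to 4.16% in fat. Nuclear respiratory chain genes were higher in liver by less: 32 of 35 were called and 12 passed 2-fold, with a median of 1.10, and library totals turned this to 3 in liver and 8 in fat. A fit to all 48 libraries gave 7 beyond 2-fold. Cytosolic ribosome genes had a median of 0.00 with none of 26 called beyond 2-fold by edgeR, 0 also at an unadjusted p under 0.05, and values from -0.77 to 0.81. With no margin 4 were higher in liver and 2 in fat by edgeR, 4 and 4 by DESeq2, while library totals made all 26 higher in fat. Of 19 unfolded protein response genes, 13 were higher in liver and 1 in fat, and 7 were higher in liver beyond 2-fold. That count ranged from 2 without number 2 or number 3 of fat to 12 without number 2 of liver, and it was 3 without number 4 of liver. Without the margin library totals gave 3 and 4, and beyond 2-fold a fit to all 48 libraries gave 14 in liver. Herpud1, an ER degradation factor, was 16.4-fold higher in liver with no such spread, at 955, 1000 and 992 CPM against 58.8, 48.7 and 73.6. The chaperone Hspa5 stood at 1113, 1474 and 5107 in liver. Clock genes included 6 of 15 higher in liver beyond 2-fold, such as Hlf (33.7-fold), with Npas2 5.46-fold higher in fat. The median clock log2 of 0.81 became -0.38 under library totals. Housekeeping genes gave 4 in liver and 1 in fat of 15 beyond 2-fold, the latter 2 without number 4 of liver or of both tissues.

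How far the tissue difference depended on diet was tested as the liver-over-fat difference on high-fat diet minus that on regular diet, in 12 male libraries. Of 17432 genes, 2026 were called (11.6%), with 890 positive (5.11%) and 1136 negative (6.52%). A negative value means that the high-fat difference was shifted toward fat. Macrophage genes were negative in 14 of 18, with a median of -2.74, where fat moved by 1.98 and liver by -0.60 between diets. Emr1 (F4/80) stood at 148, 154 and 206 CPM in high-fat fat and 34.1, 22.7 and 19.9 in regular-diet fat, while liver stood at 7.92, 5.58 and 9.37 against 24.1, 30.8 and 25.7. The interaction was -4.61 ± 0.36 (adjusted p = 4.7e-05). Lipid-associated macrophage genes were negative in 15 of 18, including Trem2 at 4.84, 3.93 and 6.21 CPM in regular-diet fat (-4.24 ± 0.52, adjusted p = 0.00044). Without number 4 of both tissues these counts were 14 and 11. With any single library left out they were 14 to 15 and 10 to 14.

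Matrix genes were negative in 15 of 26, but only in 4 without number 4, and in 5 to 24 when single libraries were left out. Leaving out number 2 of regular-diet fat gave the 24, and leaving out number 3 of either liver group or number 4 of high-fat fat gave the 5, and each other omission gave 6 to 12. Cell cycle genes were negative in 8 of 20 and MHC class II in 5 of 10, and in 5 and 5 without number 4. The summed macrophage level was 3508 to 4539 CPM in high-fat fat, 902 to 1099 in regular-diet fat and 567 to 645 in regular-diet liver.

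**Figure D5:**
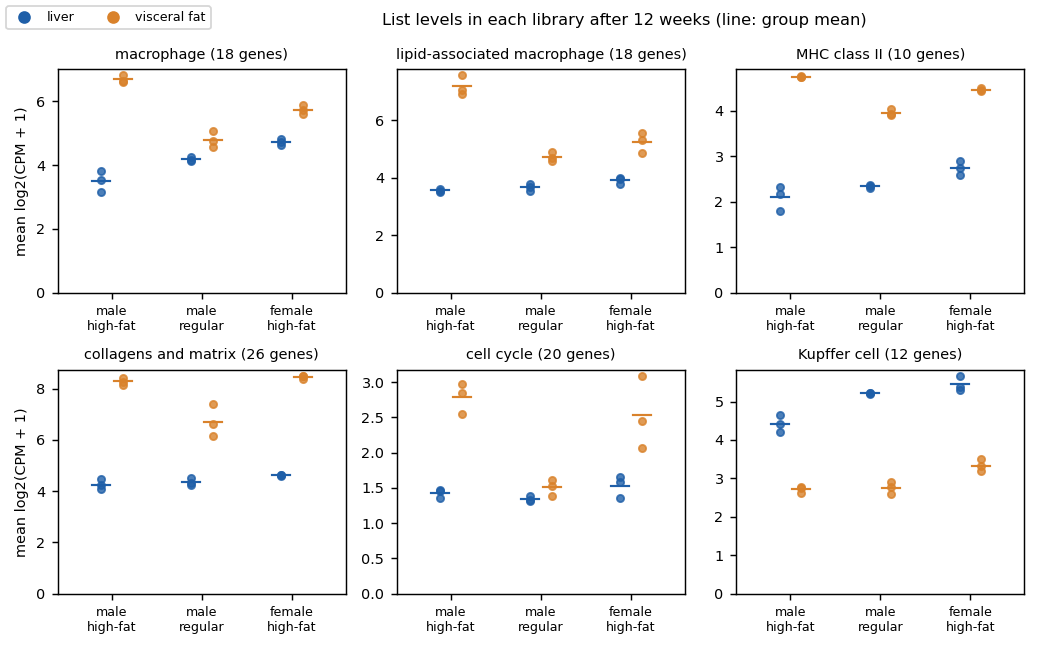
Mean log2(CPM + 1) of 6 gene lists in each library, for liver (blue) and visceral fat (orange) of high-fat males, regular-diet males and high-fat females, with the group mean as a line. In high-fat males the macrophage list lay at 6.60 to 6.82 in fat and 3.15 to 3.82 in liver, and in regular-diet males at 4.57 to 5.06 and 4.14 to 4.25.

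The regular-diet fat libraries also carried transcripts of the male tract. The 16 epididymis markers summed to 2475 to 3835 CPM there and to 4.82 to 8.12 in high-fat fat. Most of the regular-diet sum was 1 gene, Crisp1, a sperm-coating protein of the epididymis, at 2062 to 3749 against 0.793 to 4.42. Of 10 members tested by diet, with a median interaction of 7.48, only 1 was called. It was Lcn2, which is also on the acute phase list. None of the 16 was at 0 throughout regular-diet fat and 5 were in high-fat fat. Adam7, a surface protein of the epididymis, stood at 6.22 to 401 CPM against 0.186 to 0.674, while Gpx5 reached no more than 0.702 and Lcn8 no more than 0.0638 in either group. For genes of that tissue, diet and these transcripts cannot be told apart. The macrophage, matrix and cell cycle interactions above rest on the same fat libraries, and how far other tissue in them shifted those values was not tested. Bile duct genes were positive in 5 of 9, such as Cftr, a chloride channel of epithelia, at 2.75, 7.14 and 2.11 CPM in regular-diet fat against 0.133, 0.321 and 0.136 in high-fat fat. The bile duct count was 3 without number 4 of both tissues or of high-fat liver alone. Mup genes were positive in 8 of 9, and in 6 without number 4. The part of the tract transcripts in both was not tested. Between diets the median move in fat was -3.39 for Mup genes. It was -1.22 for plasma protein, -1.32 for apolipoprotein and -1.43 for P450 genes, but 0.18 for fatty acid oxidation and 0.03 for cholesterol synthesis. Few of the plasma protein interactions were called (2 of 37 positive, 1 negative). Whether the Mup shift belongs to a wider shift of liver-high genes in fat was not tested. Mup3 stood at 144, 76.2 and 32.1 CPM in regular-diet fat against 9.41, 21.2 and 2.96 in high-fat fat.

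Sex altered the tissue difference as well. Of 16786 genes, 1455 were called (8.67%), with 516 positive (3.07%) and 939 negative (5.59%) for males minus females. Library totals gave 254 and 1873. Macrophage genes were negative in 13 of 18 and lipid-associated macrophage genes in 10 of 18, and the counts without number 4 were 15 and 10. The macrophage genes had a median male-minus-female difference of -1.31 in liver and 1.02 in fat. They summed to 294 to 440 CPM in male and 885 to 973 in female liver, and to 3508 to 4539 in male and 1613 to 1961 in female fat. Trem2 was at 54.9, 65.9 and 107 CPM in male fat and 5.89, 8.16 and 9.70 in female fat, and under 3 CPM in every liver library of both sexes. The interaction was -4.04 ± 0.48 (adjusted p = 0.00058). Cholesterol synthesis genes were positive in 9 of 22, in 4 without number 7 and 5 without number 3 of female liver, and in 6 to 11 without each other library, as in Sqle, squalene epoxidase, with 190, 181 and 258 CPM in male liver and 87.2, 117 and 58.5 in female liver. Mitochondrially encoded genes were positive in 12 of 13, in 7 without number 7 of female liver or number 3 of female fat, and in 8 to 12 without each other library. The cytochrome oxidase gene mt-Co1 stood at 38364, 49352 and 48080 CPM in male liver and 33716, 31781 and 25731 in female liver, and at 6114 to 9390 in male fat against 11903 to 14655 in female fat. Males had Cyp4a12a, a fatty acid hydroxylase of male liver, at 470, 432 and 512 CPM in liver against at most 0.0426 in female liver, though reads may be split with near-identical copies.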

How the data were processed

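PolyA-selected, stranded mRNA libraries of liver and visceral fat were made from 200 ng of total RNA, per the labels' protocols. The values are estimated counts per gene symbol as deposited by the authors, not normalized and rarely whole (0.0936% of values above 0 were within 1e-06 of a whole number). Tools listed in the submitters' processing notes are kallisto, DESeq2 and edgeR, and the genome build is GRCm38, with no version or role for any tool. Estimated counts share reads among similar transcripts, which makes near-identical copies uncertain.

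Counts were rounded to whole numbers, filtered with edgeR's filterByExpr, scaled with TMM and tested with edgeR 4.0.16 (quasi-likelihood, robust, in R 4.3.3), Benjamini-Hochberg adjusted over all genes tested at 0.05. The 6 libraries were fitted without a block, glmTreat tested against 2-fold, and the interactions used 12 libraries each. All ± values are SE. Fold changes of genes at 0 use a floor of 3 counts per library. Counting intervals are 95% exact binomial intervals on counts pooled over the libraries of each tissue, without the spread between libraries. In simulated data for the 6-library comparison (15577 genes), the 2-fold test recovered 34% of 4-fold and 90% of 8-fold changes. Only 50 genes per fold size were changed there, whereas 39.1% of the genes tested passed 2-fold in the data. The adjustment for multiple tests was therefore stricter in the simulation, and these shares do not measure recovery in the data. Python 3.11.15, pandas 2.3.3 and matplotlib 3.10.9 made the tables and figures, and DESeq2 1.42.0 was an alternative. Other alternatives were RLE or library-total scaling, no filter, no robust fit, a fit to all 48 libraries, a replicate block and leaving out each library.

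Members, 51 lists (862 of 887 symbols tested) and tests were chosen with earlier results of these data known. Named genes were the 10 most abundant per direction beyond 2-fold, the 5 largest folds per direction with mean log2 CPM of at least 1, all family pairs, up to 4 members per list by p and any needed to describe a list, the 6 most extreme interactions per sign, and the 6 most abundant genes with an interval within 0.5 of equality. Not all are printed, and some named genes are not reported here. Predicted, Y-linked and sex chromosome list genes were left out.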

Additional observations from a re-analysis of the deposited data

Results flagged for a closer look

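Each gene here had a tissue difference that itself differed between diets or between sexes by a test of the interaction, adjusted p under 0.05, and was among the 6 most extreme per sign. Of the 12 diet values 4 (Pax8, Wfdc15b, Pgam1-ps2 and Sco2) and of the 11 sex values 6 (Cfd, Slc15a5, Scara5, Cyp2b13, Tubgcp5 and Sult1e1) were called in all 20 alternatives run. The weakest calls were lost in 14 of the 20 for Wfdc16, 13 for Tm4sf19, 11 for Tubgcp5 by diet, 11 for Arl11 by sex, 7 for Moxd1 and 4 for Elovl3. Arl11 by diet was lost in 3, Asb11 and Prom2 in 2, and Egf, RP23-123L9.5, Cyp4a12a and Tet2 in 1. Egf was lost without number 2 of high-fat liver and RP23-123L9.5 without number 4 of regular-diet liver. Without number 4 of both high-fat male tissues the adjusted p by edgeR was 0.30 for Asb11, 0.21 for Wfdc16, 0.13 for Prom2, 0.11 for Tubgcp5 by diet, 0.068 for Tm4sf19, 0.084 for Moxd1, 0.084 for Elovl3 and 0.073 for Arl11 by sex. Where a group was at or near 0 the value depends on the prior count and is not a fold.

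For diet, 6 positive values went with high levels in regular-diet fat: Egf 17.40, Asb11 13.77, Wfdc16 11.95, Prom2 11.80, Pax8 11.59 and Wfdc15b 11.56. Wfdc15b, for example, stood at 53.3, 83.0 and 88.3 CPM in regular-diet fat and at most 0.225 elsewhere in the males. Asb11, Wfdc16 and Prom2 were far lower in number 4 of that group than in numbers 2 and 3. The libraries with these levels are those with male tract transcripts, so diet and tract cannot be told apart.

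The 6 negative values were Pgam1-ps2 -17.27, Tm4sf19 -9.85, Sco2 -9.59, Tubgcp5 -9.50, RP23-123L9.5 -8.93 and Arl11 -6.65. Tm4sf19 stood at 7.85, 11.9 and 19.7 CPM in high-fat fat and at most 0.237 in the other male groups, and Arl11 at 9.51, 11.3 and 15.2 against at most 2.65. Sco2 was at 0 in all regular-diet fat libraries and 0.700 to 1.60 in high-fat fat. Pgam1-ps2 resembles its parent gene closely, so its counts are uncertain.

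For sex, the positive values were Cyp4a12a 11.95, Cfd 11.53, Moxd1 11.16, Slc15a5 9.80, Scara5 8.12 and Elovl3 6.93. Scara5 stood at 26.2, 77.8 and 71.9 CPM in male liver and at most 0.387 in female liver, with 63.3 to 121 in fat of both sexes. Cfd was at 0 in all female liver libraries and 1.08, 1.60 and 3.67 in male liver, and Moxd1 spread from 0 to 35.7 in male liver.

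The negative values were Tet2 -10.35, Cyp2b13 -10.19, Tubgcp5 -10.04, Sult1e1 -8.36 and Arl11 -8.14. Cyp2b13, a cytochrome P450, stood at 272 to 480 CPM in female liver and under 1 in male liver. Sult1e1, the oestrogen sulphotransferase, stood at 8.44, 21.1 and 12.6 CPM in male fat and at most 0.0364 in female fat. Tet2 and Tubgcp5 were at 0 in all male high-fat livers. In female liver Tet2 stood at 0.690, 2.02 and 3.79 CPM and Tubgcp5 at 1.13, 2.68 and 1.19. Tubgcp5 was also at 0 in number 2 of regular-diet male liver, with numbers 3 and 4 at 1.52 and 1.38.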

How the results depend on the processing

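The count beyond 2-fold was 6205 and ranged from 5721 to 6468 with any library left out, and that without the margin, 10459, from 9187 to 10995. Without number 4 of both tissues, chosen after seeing the data, they were 6621 and 11270, and the diet and sex interactions called 1365 and 1433 genes. The diet count of 2026 was the least stable: 3181 in a fit to all 48 libraries, 3343 with DESeq2 (1721 positive, 1622 negative), and 1294 to 3660 with a library left out, lowest without number 3 of high-fat liver and highest without number 2 of regular-diet fat. It was 1321 and 1322 without numbers 3 and 4 of regular-diet liver and 1336 without number 4 of high-fat fat. The split was 726 positive to 708 negative without number 3, and 1102 to 1047 without number 4, of regular-diet fat. The sex count of 1455 was 2552 with DESeq2, 1028 to 1702 with a library left out, and 240 positive to 822 negative over all 48 libraries. The cause of these shifts was not tested. Library totals alone reversed 11 named genes, to -0.90 for Cpt1b, -0.80 for Irs1, -0.39 for Adipor2, -0.97 for Adipor1, -0.12 for Insr, -0.28 for Nr1d1, -0.42 for Rpl13a, -0.69 for Rpl23, -1.19 for Ghr, -1.22 for Pabpc1 and -1.06 for Ppia. With the shared number as a replicate block, 5937 genes passed 2-fold, 10112 were called without the margin, 1520 in the diet and 951 in the sex interaction. The block left 2 of 9 Mup genes positive by diet (median 3.81), 3 of 9 bile duct genes by diet, 5 of 13 mitochondrially encoded genes by sex, and 3 of 16 T and NK cell genes higher in fat beyond 2-fold. Same-numbered deviations correlated at 0.0477, 0.156 and 0.199 for numbers 2, 3 and 4 across 11464 genes. Numbers 3 and 4 of liver correlated best with their own number of fat, and number 2 of liver with number 3 of fat (0.110). Deviations from the mean of 3 libraries constrain one another, so these values cannot settle whether a shared number marks the same mouse. The labels do not say either, and the samples were taken to share only a number. With no margin, simulated 2-fold changes were recovered in 34% of cases in the 6-library comparison, 4% by diet and 14% by sex. The test against 2-fold recovered 0% of them in the 6-library comparison. So few genes were changed in these simulations that the shares do not measure recovery in the data.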
